A study of Homo sapiens with 10 samples.

Results

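The genes described here are 10 negative regulators of MAP kinase signalling, most of them of RAS and ERK: the MAP kinase phosphatases DUSP1, DUSP2, DUSP4, DUSP5, DUSP6 and DUSP10, the Sprouty genes SPRY2 and SPRY4, and the related genes SPRED1 and SPRED2. They were listed by name, with earlier results of these data known, and read through their Ensembl identifiers. All 10 were found among the 59204 human genes of the count tables. Total and labelled RNA were counted in 10 libraries of K562 cells, an established human line from a chronic myeloid leukaemia. In SLAM-seq, 4-thiouridine built into new RNA is later read as a T-to-C change, so reads from RNA made in the presence of the label can be told from other reads. All cells had received 30 µM 4-thiouridine for 12 h and were then chased with 3 mM uridine. A single library was taken at the start of the chase (0 h), and 1 library each at 2, 4 and 8 h of chase with DMSO (the solvent), with 1 µM JQ1 or with 1 µM AZ-5576. JQ1 keeps BET proteins off acetylated chromatin. AZ-5576 blocks CDK9, which acts within P-TEFb to release paused RNA polymerase II. The 3 arms share the 0 h library, and no condition was repeated (n = 1). Differences between arms were therefore not checked against replicates.

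RAS passes growth signals through the kinases RAF and MEK to ERK, which enters the nucleus and switches on a set of short-lived transcripts. Among these are genes whose proteins switch the pathway off again: dual-specificity phosphatases (DUSPs) remove the activating phosphates from MAP kinases, and Sprouty and SPRED proteins act further upstream, on the step from receptor and RAS to RAF. In K562 the fusion kinase BCR-ABL keeps RAS signalling on.

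Libraries held between 10293371 and 16008906 total human reads, 2031796 to 3868420 labelled reads and 1208073 to 2366155 reads of the added fly RNA. Values are given as reads per 1000000 fly reads of the same library, called normalised reads below; the fly RNA was added at 5% of the purified RNA, so these values follow RNA mass and not cell number, and fewer cells and less RNA per cell cannot be told apart. All 8 K562 and erythroid marker genes had reads in every library, from KLF1 (64 to 1484 reads) to the fetal globin HBG1 (59843 to 96862 reads). Its near-identical copy HBG2 was counted as its own gene (48697 to 73712 reads), and how reads that match both were assigned is not known. Among 9 markers of other cell types, MS4A1 (B cells) was at 0 in 9 libraries and CD3E (T cells) in 7, and EPCAM had 374 to 902 reads. The normalised reads of these 9 markers summed to 496 at 0 h, 455 to 578 in DMSO, 312 to 449 in JQ1 and 311 to 466 in AZ-5576, and their part in the results below was not tested. Reads start near the 3′ end of a transcript, so levels were compared between libraries and not between genes.

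Of the 10 genes, 7 had a mean of at least 20 total reads over the libraries and could be read: DUSP1, DUSP5, DUSP10, SPRY2, SPRY4, SPRED1 and SPRED2. For labelled RNA only SPRED1 and SPRED2 reached that mean, at 99.8 and 91.1 reads. The 3 genes below it were not tested. DUSP4, a nuclear phosphatase, had 1 read in all, in DMSO at 4 h, and no labelled read. DUSP6, the cytoplasmic phosphatase for ERK (GRCh38 chromosome 12, 89347232 to 89353271, minus strand), had 2 reads at 0 h, 4, 3 and 1 in DMSO at 2, 4 and 8 h, 5, 4 and 18 under JQ1, and 3, 1 and 2 under AZ-5576. Its 1 higher library was JQ1 at 8 h. DUSP2, a nuclear phosphatase for ERK (chromosome 2, 96143166 to 96145440, minus strand), had no read at 0 h, 0, 1 and 0 in DMSO, 2, 8 and 5 under JQ1, and 0, 5 and 21 under AZ-5576. Its counts were highest in AZ-5576 at 8 h, where the normalised level was 3.10 times that of JQ1 at 8 h (exact 95% interval 1.137 to 10.5, counting error only). Of those 21 reads 1 was labelled.

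Labelled RNA is lost at a rate that depends on the transcript, and AU-rich elements in the 3′ untranslated region (UTR) are known to mark short-lived transcripts of this kind. The sites below are shown because DUSP1, SPRY2 and SPRY4 each hold 2 copies of the AU-rich heptamer TATTTAT within the last 500 bases of their 3′ UTR, the stretch nearest to where 3′ end libraries read. Each line gives the heptamer in capitals with 8 bases on either side, from the GENCODE v29 transcript (GRCh38), 5′ to 3′, in the letters of the transcript's sense strand. Positions are those of the heptamer's last base, counted from the transcript's 3′ end. They are 104 and 297 for the first and second DUSP1 sites, 122 and 158 for SPRY2, and 126 and 154 for SPRY4.
DUSP1 site at 104: ttgctgatTATTTATgacctgaa
DUSP1 site at 297: atatacctTATTTATttttgtgt
SPRY2 site at 122: aaaaagaaTATTTATtttaagag
SPRY2 site at 158: gtaaagaaTATTTATttgaagtt
SPRY4 site at 126: tttaatagTATTTATtttagaaa
SPRY4 site at 154: gtatagaaTATTTATtttgaagc

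DUSP1 had a further copy 565 bases from the end of its 672-base 3′ UTR, and SPRY4 had 2 more, 1938 and 1982 bases from the end of its 3782-base 3′ UTR. Of the other members, DUSP2 had 1 heptamer in the window, and DUSP5, DUSP6, DUSP10, SPRED1 and SPRED2 had none there. SPRED1 held 5 and SPRED2 held 1 farther upstream, in 3′ UTRs of 5585 and 2650 bases, and DUSP5 had neither the heptamer nor the shorter ATTTA in its 1118 bases. Within the window DUSP10 and DUSP2 each held 3 copies of ATTTA, as did SPRY4, and DUSP1 and SPRY2 held 2. SPRED1 and SPRED2 held 1 and DUSP6 held 0. Among 13553 genes with a 3′ UTR of at least 500 bases, 16.2% held the heptamer in that window, 62.7% held ATTTA and 33.7% held 2 or more copies of ATTTA. A match of letters is a description and says nothing of a protein that binds there.

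DUSP1 (MKP-1) is a nuclear phosphatase for JNK, p38 and ERK and a textbook immediate-early gene. It lies on chromosome 5 (172768090 to 172771195, minus strand). It had 27.7 normalised reads at 0 h, 43.0, 30.0 and 28.4 in DMSO at 2, 4 and 8 h, 54.3, 26.3 and 62.4 under JQ1, and 4.41, 2.04 and 0 under AZ-5576. All 3 AZ-5576 libraries lay below every other library, and the 8 h library had no read. At 2 h the AZ-5576 level was 10.2% of DMSO (3.59% to 23.8%, 6 against 52 reads). At 8 h it had 0 reads against 50, which is 22.4-fold lower if the 0 is set to a floor of 3 reads. DUSP1 was lower in AZ-5576 than in DMSO by 4.16 log2 units over the 3 times, a difference of -4.16 (SE 0.78, adjusted p = 0.0375 by edgeR's quasi-likelihood test with Benjamini-Hochberg adjustment).

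The start region of DUSP1 is shown because its reads were few or none in all AZ-5576 libraries and because, of the 8 members whose windows were read, it alone held a full cyclic AMP response element. The run is the RefSeq window of 250 bases before to 50 after the start (GRCh38.p14, chr5:172771146-172771445, minus strand, 5′ to 3′). Capitals mark the core site TGACG on either strand (CGTCA on the other strand), the full element TGACGTCA, which contains it on both strands, and the TATA motif TATAAA.
DUSP1 start region: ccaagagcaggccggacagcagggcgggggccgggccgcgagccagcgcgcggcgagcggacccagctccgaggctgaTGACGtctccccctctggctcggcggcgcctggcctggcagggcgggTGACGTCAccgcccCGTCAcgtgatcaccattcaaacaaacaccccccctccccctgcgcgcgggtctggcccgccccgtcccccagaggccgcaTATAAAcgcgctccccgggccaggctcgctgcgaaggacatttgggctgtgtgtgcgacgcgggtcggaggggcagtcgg

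The window held 4 core sites, 1 full element and 1 TATAAA. Of 35116 such windows of the same length, 24.6% held the core site, 1.85% the full element and 11.5% TATAAA on either strand. Windows were read for 8 of the members. None of these held the ETS core CCGGAAG (10.3% of all windows) or the SRF CArG box (1.29%), and 1 SPRED2 window held 2 copies of the AP-1 motif TGANTCA (7.71%). No window was read for DUSP5, which had the largest fitted fall in AZ-5576 of the 7 readable members. SPRY2, which also had few AZ-5576 reads, held no full element in its windows. These counts describe letters and show no binding, and a link to the AZ-5576 levels was not tested.

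DUSP5, a nuclear phosphatase that acts on ERK and is itself a known ERK target, lies on chromosome 10 (110497838 to 110511544, plus strand). It had 24.3 normalised reads at 0 h, 32.3, 80.4 and 57.8 in DMSO, 35.6, 45.0 and 81.3 under JQ1, and 2.94, 0 and 0.845 under AZ-5576. The level was above 0 h in all DMSO and JQ1 libraries and far below it in all 3 AZ-5576 libraries. At 2 h AZ-5576 had 9.10% of the DMSO level (2.36% to 25.2%), and at 8 h it had 1.46% (0.175% to 5.42%). At 4 h it had 0 reads against 110, which is 39.4-fold lower if the 0 is set to the floor of 3 reads. The fitted difference between AZ-5576 and DMSO was -5.47 log2 units (SE 0.81, adjusted p = 0.0165), the largest fall among the 7 readable members.

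DUSP10 (MKP-5), which acts on JNK and p38 rather than on ERK, lies on chromosome 1 (221701424 to 221742176, minus strand). It had 29.7 normalised reads at 0 h, 22.3, 19.7 and 19.8 in DMSO, 23.1, 28.5 and 38.4 under JQ1, and 19.8, 12.9 and 1.27 under AZ-5576. The counting intervals of AZ-5576 and DMSO overlapped at 2 h and not at 8 h, where AZ-5576 had 3 reads and DMSO 35, or 6.39% of the DMSO level (1.26% to 20.3%). The mean difference over the 3 times was -1.05 log2 units (SE 0.71) and did not pass the test (adjusted p = 0.253).

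**Figure D1:**
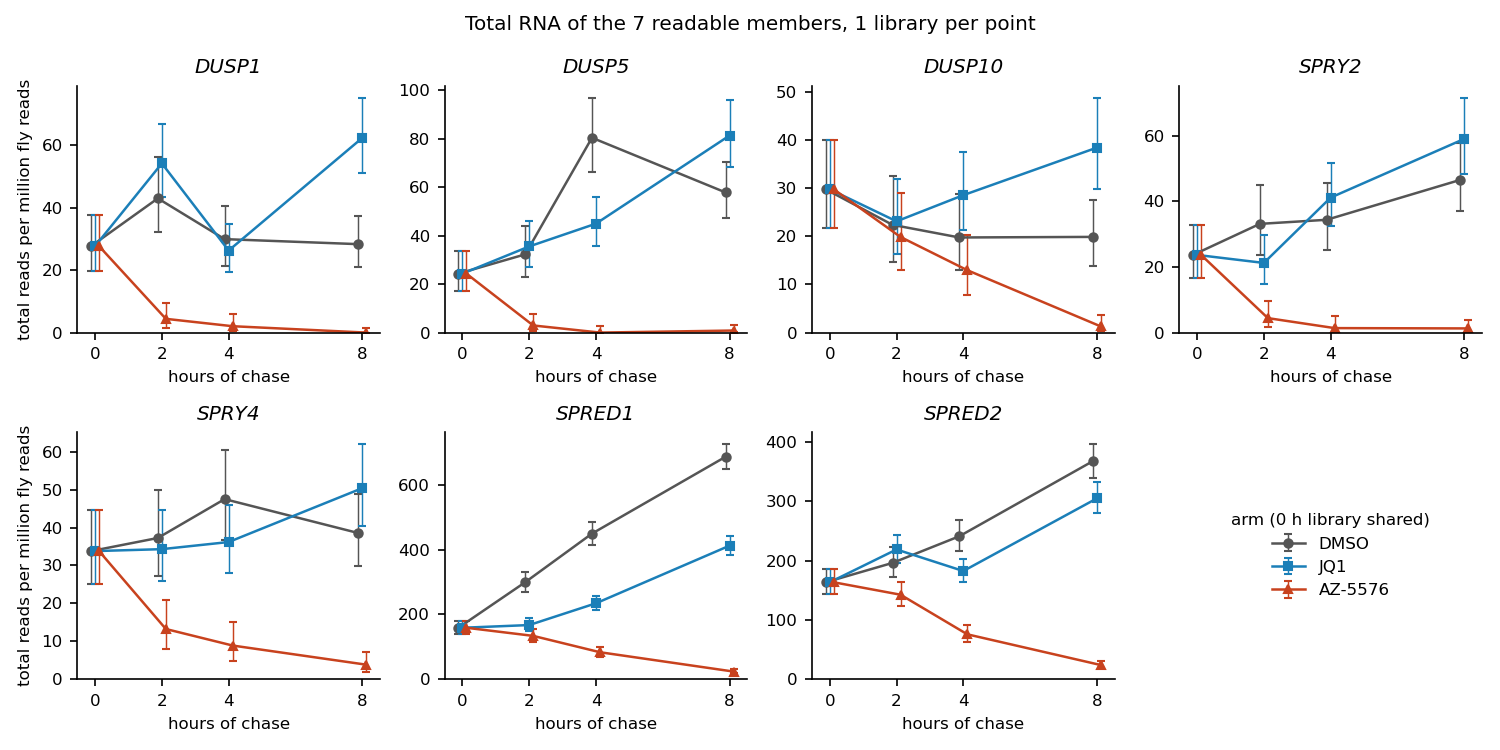
Total reads per 1000000 fly reads (y axis, from 0) against hours of chase (x axis) for the 7 readable members, 1 library per point, with exact 95% counting intervals. In DUSP1, DUSP5 and SPRY2 the AZ-5576 points lie near 0 from 2 h on, while in DUSP10, SPRED1 and SPRED2 they fall step by step to 8 h.

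SPRY2, a Sprouty protein that dampens receptor signalling to RAS, lies on chromosome 13 (80335976 to 80340951, minus strand). It had 23.7 normalised reads at 0 h, 33.1, 34.4 and 46.5 in DMSO, 21.2, 41.1 and 59.0 under JQ1, and 4.41, 1.36 and 1.27 under AZ-5576. Its AZ-5576 libraries had 6, 2 and 3 reads and lay below all others. The AZ-5576 level was 13.3% of DMSO at 2 h (4.61% to 31.6%), 3.97% at 4 h and 2.73% at 8 h, and the fitted difference was -4.04 log2 units (SE 0.64, adjusted p = 0.0228).

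SPRY4, another Sprouty gene and a common readout of ERK activity, lies on chromosome 5 (142310427 to 142326455, minus strand). It had 33.8 normalised reads at 0 h, 37.2, 47.5 and 38.6 in DMSO, 34.3, 36.2 and 50.4 under JQ1, and 13.2, 8.85 and 3.80 under AZ-5576. The 3 AZ-5576 libraries were again the lowest, but with more reads left than in SPRY2: 35.5% of DMSO at 2 h (19.3% to 62.6%), 18.6% at 4 h and 9.86% at 8 h. The fitted difference was -2.31 log2 units (SE 0.52, adjusted p = 0.0486). An antisense gene that overlaps SPRY4 had 0 to 3 reads in each library.

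SPRED1, which brings the RAS inhibitor neurofibromin to the membrane, lies on chromosome 15 (38252326 to 38357249, plus strand) and had the most reads of the 10 genes. It had 158.8 normalised reads at 0 h, 299.7, 450.2 and 687.9 in DMSO, 167.2, 234.6 and 412.9 under JQ1, and 133.7, 83.1 and 23.2 under AZ-5576. The 3 arms kept one order at each time, DMSO above JQ1 above AZ-5576. In DMSO it reached 4.33 times the 0 h level at 8 h (3.76 to 5.00), and in AZ-5576 it fell to 14.6% of it (10.7% to 19.7%). At 8 h AZ-5576 had 3.38% of the DMSO level (2.53% to 4.43%). The fitted difference between AZ-5576 and DMSO, -2.51 log2 units (SE 0.67), missed the threshold (adjusted p = 0.0543).

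SPRED2, its close relative, lies on chromosome 2 (65310851 to 65432637, minus strand). It had 163.5 normalised reads at 0 h, 196.2, 241.2 and 368.1 in DMSO, 218.9, 182.5 and 305.2 under JQ1, and 142.5, 75.6 and 23.7 under AZ-5576. DMSO and JQ1 changed order between 2 h and 4 h, and AZ-5576 was lowest at each time. AZ-5576 had 72.6% of the DMSO level at 2 h (59.8% to 88.2%), 31.4% at 4 h and 6.43% at 8 h, with a fitted difference of -1.81 log2 units (SE 0.61, adjusted p = 0.0662).

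Whether CDK9 inhibition lowered these genes was asked over the 7 readable members together. DUSP1, DUSP5, SPRY2 and SPRY4, 4 of 7, were lower in AZ-5576 than in DMSO past the threshold, none was higher, and 2.38% of all 11797 genes tested were called lower. DESeq2 called 6 of 7 lower, with 35.3% of all genes, and TMM scaling 3 of 7, with 2.32%. The quasi-likelihood fit on these 2 arms and 0 h alone called 6 of 7, with 1635 of 11643 genes called lower. There SPRED1 (adjusted p = 0.00629) and SPRED2 (adjusted p = 0.0404) passed, and DUSP10 did not (adjusted p = 0.16). The median difference of the 7 was -2.51 log2 units beside -0.82 for all genes tested. The members were chosen with earlier results of these data known, so these figures are no independent evidence. Taken time by time, the members' median log2 ratio of AZ-5576 to DMSO fell from -1.47 (2 h) to -2.43 (4 h) and -4.87 (8 h), beside -0.25, -0.67 and -1.63 for all genes. The call of all 4 was lost without the DMSO library of 4 h, the DMSO library of 8 h or the AZ-5576 library of 4 h (0 of 7 each), fits in which at most 0.0169% of all genes were called lower. Without the JQ1 library of 4 h 2 were called (0.29% of all genes), and without the AZ-5576 library of 2 h all 7 were, where 57.6% of all genes were called lower. Their fitted differences stayed below 0 in each of these fits.

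The same question put as a slope, with a common 0 h level and a straight line in log2 counts per hour for each arm, gave 7 of 7 members lower in AZ-5576 than in DMSO. In that model 73.3% of all genes were called lower, so the count itself is near what most genes did, and the size is what differs: the median of the members was -0.60 log2 units per hour beside -0.19 for all genes. The steepest differences were in DUSP5 (-1.16, SE 0.14, adjusted p = 2.97e-07) and DUSP1 (-1.12, SE 0.13, adjusted p = 2.98e-07). DUSP10 had the smallest (-0.35, SE 0.09, adjusted p = 0.00128). Against the 0 h level, all 7 fell in AZ-5576 (69.2% of all genes did), from -0.34 per hour in SPRED2 to -1.14 in DUSP1.

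Whether BET inhibition changed them was asked in the same way. Against DMSO, JQ1 gave 0 of 7 calls with edgeR's quasi-likelihood test (0% of all genes were called in either direction), 0 at an unadjusted p under 0.05 and 0 with DESeq2. The differences ran from -0.83 log2 units in SPRED1 (SE 0.60, adjusted p = 0.634) to 0.59 in DUSP10 (SE 0.67, adjusted p = 0.73), with a median of -0.01 beside -0.31 for all genes. Standard errors in this fit were between 0.48 and 0.67. A fit on these 2 arms and 0 h alone called SPRED1 lower (-0.84, SE 0.15, adjusted p = 0.00828), where 20.9% of all genes were called lower.

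Single libraries showed 2 patterns within that spread. At 8 h DUSP1 in JQ1 was 2.20 times DMSO (1.56 to 3.14), DUSP10 1.93 times (1.27 to 3.00) and DUSP5 1.41 times (1.08 to 1.83), while at 4 h DUSP5 was 0.559 times DMSO (0.415 to 0.751). SPRED1 went the other way at every time, at 0.558 times DMSO at 2 h (0.475 to 0.655), 0.521 at 4 h (0.460 to 0.591) and 0.60 at 8 h (0.547 to 0.659). In the slope model SPRED1 was the 1 member of 7 called lower in JQ1 than in DMSO (-0.13 per hour, SE 0.04, adjusted p = 0.0233), where 16.2% of all genes were called lower. The intervals cover counting error only.

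**Figure D2:**
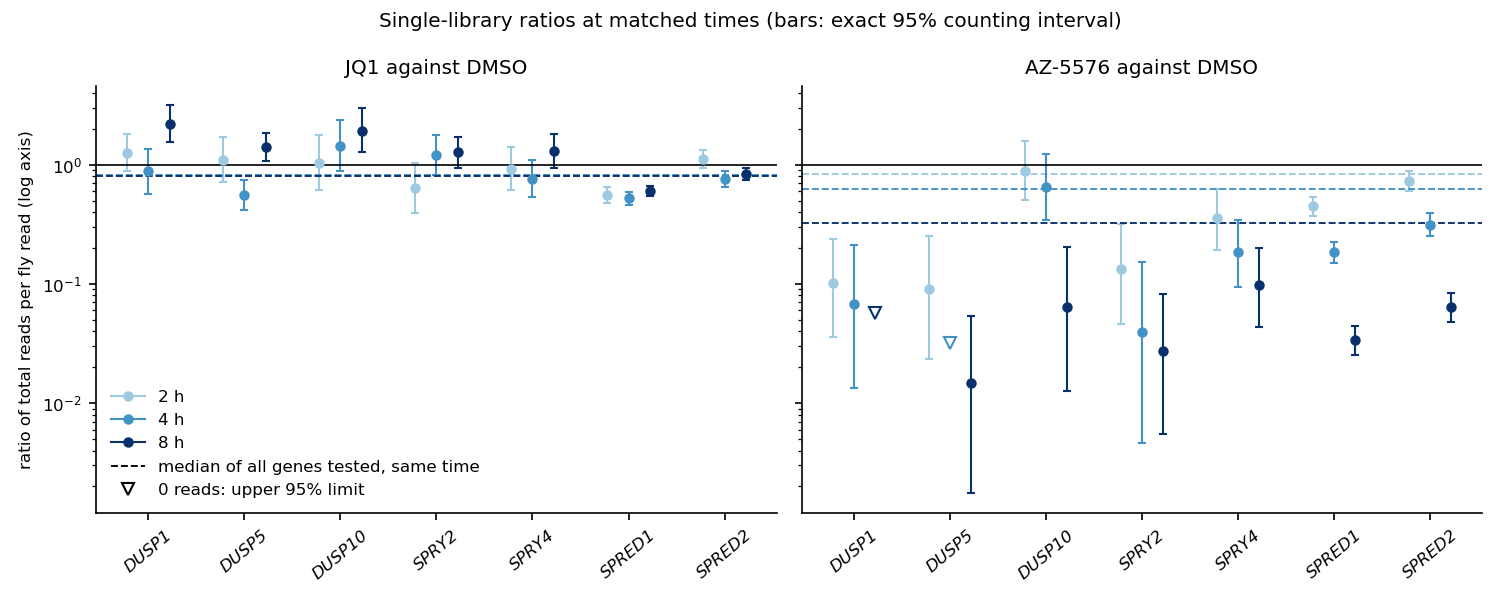
Ratio of total reads per fly read to DMSO at the same time (y axis, log scale) for each readable member under JQ1 (left) and AZ-5576 (right), with exact 95% counting intervals, open triangles for the upper limit where no read was seen, and dashed lines for the median of all genes tested. SPRED1 lies between 0.521 and 0.60 under JQ1 at all 3 times, and at 8 h under AZ-5576 each member lies below the dashed median.

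Without an inhibitor the arms were also read against the 0 h library. In DMSO 2 of 7 members rose over the chase, SPRED1 (0.26 per hour, SE 0.04, adjusted p = 4.33e-05) and SPRED2 (0.12, SE 0.04, adjusted p = 0.0153), and 24.5% of all genes rose. DUSP5 (0.22, SE 0.08, adjusted p = 0.0539) and SPRY2 (0.17, SE 0.07, adjusted p = 0.0749) missed the threshold. In JQ1 3 of 7 rose, SPRED1 (0.13, adjusted p = 0.0112), SPRY2 (0.20, adjusted p = 0.0271) and DUSP5 (0.21, adjusted p = 0.0388), where 15% of all genes rose. The 0 h cells had been under the 4-thiouridine pulse with repeated medium exchange until then, and the part of washing and fresh medium in these rises was not tested.

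Compared directly, AZ-5576 was lower than JQ1 past the threshold in 3 of 7 members (1.17% of all genes were called lower): DUSP5 by -5.37 log2 units (SE 0.80, adjusted p = 0.0189), DUSP1 by -4.66 (SE 0.78, adjusted p = 0.0257) and SPRY2 by -4.10 (SE 0.65, adjusted p = 0.022). SPRY4 differed by -2.30 (SE 0.52, adjusted p = 0.0621), SPRED1 by -1.69, DUSP10 by -1.64 and SPRED2 by -1.60. The median was -2.30 beside -0.46 for all genes. DESeq2 called 6 of 7, with 10.2% of all genes. A fit on these 2 arms and 0 h alone called 0 of 7 (0.154% of all genes). Leaving out single libraries gave 0 without DMSO at 8 h (0.197% of all genes), JQ1 at 4 h (0.128%) or AZ-5576 at 4 h (0.059%). It gave 1 without DMSO at 4 h (0.237%) and 7 without AZ-5576 at 2 h, where 31.7% of all genes were called lower.

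The labelled share, labelled reads out of a gene's total reads, depends on how much of a transcript was made during the pulse and on how often a read of it carries a called T-to-C change. At 0 h it was 90.2% for DUSP1 (76.9% to 97.3%, 37 of 41 reads) and 88.0% for SPRY4 (75.7% to 95.5%, 44 of 50). Among 10645 genes with at least 30 reads the median share was 51.5%, and 0.536% of genes had a share as high as DUSP1 and 0.676% as high as SPRY4. DUSP5 stood at 72.2%, SPRED1 at 69.4%, SPRED2 at 68.6%, DUSP10 at 50.0% and SPRY2 at 48.6%. SPRY2 and DUSP10 lay near the median. How many changes made a read count as labelled was not stated, so a share is not read here as the percentage of pulse-made RNA.

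In DMSO the labelled share of all 7 readable members was under 9% by 8 h, and that of the whole library was 13.2%, against 30.5%, 28.7% and 25.5% for the whole AZ-5576 libraries of 2, 4 and 8 h. SPRED1 went from 69.4% to 40.9%, 18.0% and 4.29%, and SPRED2 from 68.6% to 50.6%, 19.1% and 6.16%. In AZ-5576 the same shares stayed at 67.0%, 59.0% and 56.4% in SPRED1 and at 60.3%, 55.9% and 51.8% in SPRED2. SPRY2 had 6 of 6 reads labelled in AZ-5576 at 2 h (54.1% to 100%) against 5 of 40 in DMSO (12.5%, 4.19% to 26.8%), and SPRY4 15 of 18 (83.3%, 58.6% to 96.4%) against 15 of 45 (33.3%, 20.0% to 49.0%). At 4 h and 8 h SPRY4 had 4 of 13 (30.8%, 9.09% to 61.4%) and 2 of 9 reads labelled in AZ-5576. In DMSO it had 16 of 65 (24.6%) and 6 of 68. DUSP10 had 10 of 27, 7 of 19 and 0 of 3 in AZ-5576 at 2, 4 and 8 h, and 4 of 27, 4 of 27 and 0 of 35 in DMSO. SPRY2 at 4 h and 8 h, with 1 of 2 and 2 of 3, had too few reads left in AZ-5576 for the share to be read. The same held for DUSP1 and DUSP5.

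**Figure D3:**
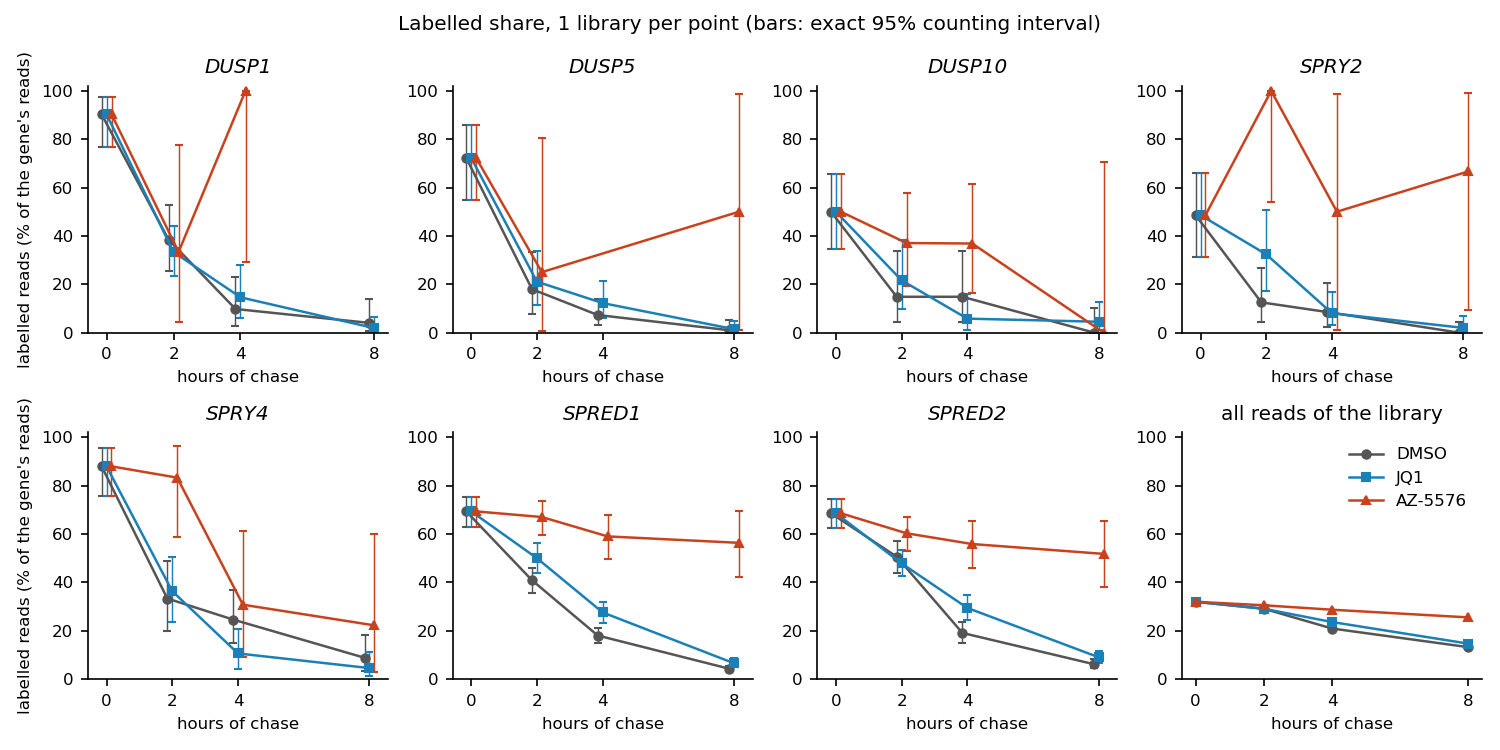
Labelled reads as a percentage of a gene's total reads (y axis, 0 to 100) against hours of chase (x axis), 1 library per point with exact 95% intervals; the last panel gives the share over all reads of each library. In DMSO and JQ1 the shares of all 7 genes fall toward 0, while SPRED1 and SPRED2 stay above 50% in AZ-5576.

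Reads without label can come from RNA made during the chase, RNA left from before the pulse, or pulse-made RNA whose read has no called change, and these cannot be told apart. Unlabelled SPRED1 rose in DMSO from 48.7 normalised reads at 0 h to 177.1, 369.1 and 658.4, and in JQ1 to 83.6, 169.9 and 386.0, but went to 44.1, 34.1 and 10.1 in AZ-5576. Unlabelled SPRED2 rose from 51.4 to 345.4 in DMSO at 8 h and to 277.8 in JQ1, and was 11.4 in AZ-5576. For SPRY2, AZ-5576 had 0, 1 and 1 unlabelled reads at 2, 4 and 8 h where DMSO had 35, 43 and 82. For DUSP1 it had 4, 0 and 0 where DMSO had 32, 37 and 48.

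The loss of labelled RNA itself could be fitted for SPRED1 and SPRED2, and in DMSO both fell (88.3% of 8817 genes did). Without the DMSO library of 8 h SPRED2 alone passed (adjusted p = 0.00238), and SPRED1 did not (adjusted p = 0.158), where 37.6% of all genes fell. SPRED1 had 110.2 normalised labelled reads at 0 h and 122.5, 81.1 and 29.5 in DMSO, 83.6, 64.7 and 26.9 under JQ1, and 89.6, 49.0 and 13.1 under AZ-5576. SPRED2 had 112.2 at 0 h and 99.3, 46.0 and 22.7 in DMSO, 104.8, 53.7 and 27.5 under JQ1, and 86.0, 42.2 and 12.3 under AZ-5576. The AZ-5576 values were the lowest at 4 h and 8 h for both genes.

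As half-lives of the fitted lines, SPRED1 had 3.86 h in DMSO (95% interval 2.77 to 6.33 h), 3.27 h in JQ1 (2.47 to 4.85 h) and 2.40 h in AZ-5576 (1.91 to 3.22 h). SPRED2 had 3.01 h in DMSO (2.30 to 4.37 h), 3.41 h in JQ1 (2.54 to 5.20 h) and 2.35 h in AZ-5576 (1.88 to 3.15 h). The median half-life of all genes fitted was 4.49 h in DMSO, 4.27 h in JQ1 and 5.39 h in AZ-5576. In DMSO 40.1% of genes had a shorter half-life than SPRED1 and 23.9% a shorter one than SPRED2. These are losses per RNA mass, so growth of the cells during the chase is part of them. Labelled RNA made or completed after the wash-out would also enter these values, and its part was not tested. Labelled SPRED1 in DMSO was at 111% of its 0 h level at 2 h (88.4% to 140%, counting error only).

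The difference of these slopes between AZ-5576 and DMSO was -0.16 log2 units per hour in SPRED1 (SE 0.05, adjusted p = 0.0621) and -0.09 in SPRED2 (SE 0.06, adjusted p = 0.4). By edgeR's quasi-likelihood test 0 of 2 were called, where 1.22% of all genes were called lower; 1 of 2 had an unadjusted p under 0.05, and DESeq2 called 0. With TMM scaling SPRED1 passed (-0.19, adjusted p = 0.00524), as it did without the 0 h library (adjusted p = 0.0214). Between JQ1 and DMSO 0 of 2 were called (0.669% of all genes were called in either direction), with 0 at an unadjusted p under 0.05 and 0 with DESeq2, and differences of -0.05 in SPRED1 and 0.04 in SPRED2.

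**Figure D4:**
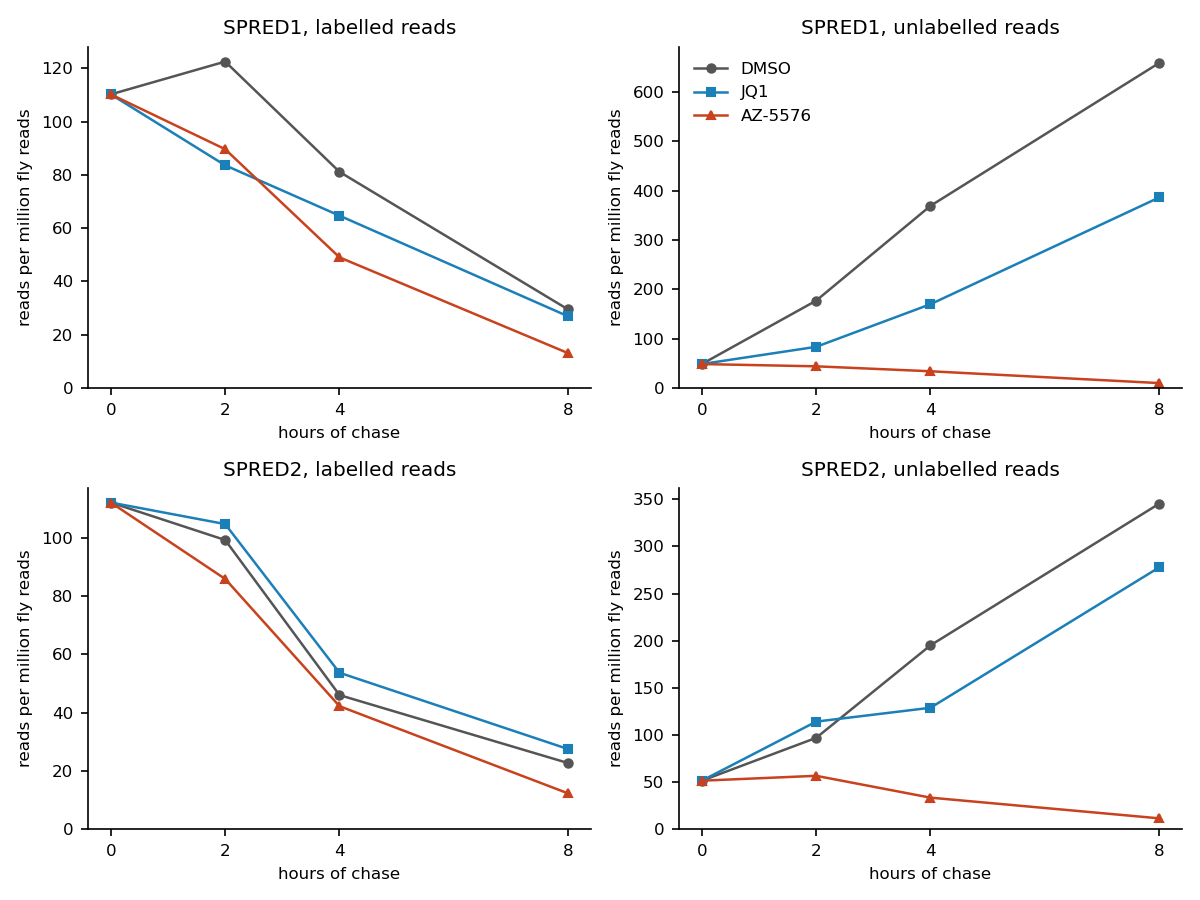
Labelled (left) and unlabelled (right) reads per 1000000 fly reads (y axes, from 0) of SPRED1 and SPRED2 against hours of chase (x axis), 1 library per point. Labelled reads fall in all 3 arms, while unlabelled SPRED1 rises from 48.7 to 658.4 in DMSO and falls to 10.1 in AZ-5576.

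For the other 5 readable genes labelled reads were few, and the first 2 h give the clearest view. SPRY4, with 2 AU-rich heptamers near its end, went from 44 labelled reads at 0 h to 15, 20 and 15 at 2 h in DMSO, JQ1 and AZ-5576. Its labelled level was then 41.8% of that at 0 h in DMSO (21.6% to 76.5%), 42.0% in JQ1 (23.4% to 72.7%) and 37.1% in AZ-5576 (19.2% to 67.9%), with intervals that overlap. SPRY2 went from 17 to 5, 11 and 6 labelled reads, or 36.0%, 59.7% and 38.4% of the 0 h level, also with overlapping intervals.

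DUSP1 and DUSP5 had the fewest labelled reads left in the AZ-5576 library of 2 h. Labelled DUSP1 was at 66.2% of its 0 h level in DMSO (36.4% to 117%), 72.3% in JQ1 (42.9% to 121%) and 5.88% in AZ-5576 (0.686% to 22.8%, 2 against 37 reads). Labelled DUSP5 was at 33.0% in DMSO (12.1% to 78.0%), 42.6% in JQ1 (19.6% to 87.5%) and 4.18% in AZ-5576 (0.102% to 25.5%, 1 against 26 reads). Any labelled RNA made after the wash-out would enter these levels, in an amount that may differ between arms, and this was not tested. The AZ-5576 interval of DUSP1 lay below those of DMSO and JQ1, and that of DUSP5 overlapped both. DUSP1 in AZ-5576 lay at 8.88% of the DMSO labelled level at 2 h (1.01% to 36.5%). DUSP10 went the other way in size, at 22.3% of its 0 h level in DMSO and 49.4% in AZ-5576, with intervals that overlap (5.58% to 65.6% and 20.9% to 109%). Across fly genes the AZ-5576 library of 2 h had the lowest median correlation with the others (0.918), and its part in these values was not tested; DUSP1 and DUSP5 also had few total reads in the AZ-5576 libraries of 4 h and 8 h.

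When the count minimum was lowered to a mean of 5 labelled reads, all 7 readable members were fitted and all fell in DMSO, as did 78.8% of all genes at that minimum. Half-lives were then 1.40 h in DUSP10 (0.917 to 2.95 h), 1.63 h in SPRY2 (1.01 to 4.22 h), 1.69 h in DUSP1 (1.15 to 3.21 h), 2.22 h in DUSP5 (1.32 to 7.08 h) and 2.96 h in SPRY4 (1.81 to 8.20 h). These intervals overlap one another. DUSP10 and DUSP5, without a heptamer near the end, had intervals that overlap those of DUSP1, SPRY2 and SPRY4, which have 2. Of these, DUSP10 did hold 3 copies of the shorter ATTTA there.

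The rest of the pathway was read from lists of related genes. In AZ-5576 against DMSO, 1 of 27 tested genes of the ERK cascade was called lower and none higher, with a median of -0.94 beside 2.38% and -0.82 for all genes: SRF, the partner of the ERK-activated ternary complex factors (-2.07, SE 0.33, adjusted p = 0.0232). MKNK2, an ERK-activated kinase, differed by -0.36 (adjusted p = 0.423).

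Of 14 tested ERK-responsive transcripts, 8 were called lower and none higher, with a median of -2.42. IER3, an early growth factor response gene, had 202.7 normalised reads at 0 h, 482.6, 600.0 and 696.4 in DMSO and 80.1, 30.0 and 24.9 in AZ-5576. FOSL1, an AP-1 subunit, was at 168.3 at 0 h, 251.6, 185.6 and 186.0 in DMSO, 109.8, 57.6 and 24.1 under JQ1, and 68.3, 17.0 and 2.96 under AZ-5576, and so was low in both inhibitor arms (-3.57 in AZ-5576, adjusted p = 0.0375; -2.09 in JQ1, adjusted p = 0.508). EGR1, an immediate-early transcription factor, was 1718 in JQ1 at 2 h against 231.8 in DMSO, and 30.1 in AZ-5576. At 4 h and 8 h it was 277.4 and 311.0 in JQ1, 138.1 and 217.8 in DMSO, and 25.9 and 29.2 in AZ-5576. The list was chosen with results of these libraries known, so its direction is no independent evidence.

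Among the 4 tested relatives of the members, DUSP16, a phosphatase for JNK and p38, was called lower in AZ-5576 (-1.63, SE 0.36, adjusted p = 0.0486), none was higher, and the median was -0.93. DUSP16 had 83.8 normalised reads at 0 h, 244.2, 249.2 and 198.5 in DMSO, 124.7, 100.3 and 103.1 under JQ1, and 107.3, 61.3 and 60.9 under AZ-5576, so both inhibitor arms lay below DMSO. DUSP8 differed by -0.22 (adjusted p = 0.65).

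The lists that follow had 0 calls with edgeR's quasi-likelihood test in AZ-5576 against DMSO. They were the 9 atypical DUSPs (5 at an unadjusted p under 0.05, median -0.92), the 11 other brakes on RAS and ERK such as the RAF kinase inhibitor PEBP1 (3, median -0.86) and the 11 JNK and p38 kinases (8, median -1.29). DUSP14, an atypical DUSP, missed the threshold (-1.95, SE 0.54, adjusted p = 0.0558). DESeq2 called 4, 3 and 8 genes of these 3 lists lower, 13 of the 27 cascade genes, 8 of the 14 ERK-responsive transcripts and 2 of the 4 relatives, beside 35.3% of all genes. Slopes called 7, 10 and 11 of the 3 lists, 25 of the cascade, 12 of the ERK-responsive transcripts and 2 of the relatives lower, beside 73.3% of all genes.

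In JQ1 against DMSO, no gene of any of these 6 lists was called, nor was any of all 11797 genes, with medians of -0.31 for the cascade, 0.41 for the ERK-responsive transcripts and 0.02 for the relatives. At an unadjusted p under 0.05 there were 2, 5 and 1 genes in these 3 lists, and 1, 1 and 0 in the atypical DUSPs, the other brakes and the JNK and p38 kinases. DESeq2 called 1 of the ERK-responsive transcripts lower and 0 in the other 5 lists. Slopes called 4 cascade genes lower and 1 higher, and 2 ERK-responsive transcripts lower and 2 higher. In that model 16.2% of all genes were called lower, and 211 of 11797 higher. The fit on 0 h and these 2 arms called 5 cascade genes lower, among them SRF (-0.66, adjusted p = 0.00828), and 1 higher. It called 2 ERK-responsive transcripts lower and 5 higher. In this fit 20.9% of all genes were called lower, and 199 of 11976 higher. It also called DUSP16 lower (-1.08, adjusted p = 0.00828).

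The genes whose total RNA ran most like a member's were found by Pearson correlation of log2 normalised reads over the 10 libraries among 8203 genes, as a description of libraries that share a time course and a scale. For DUSP5 they were TBCC (0.978), IER3 (0.973), RNF139 (0.972), CDKN1B (0.970) and ZNF92 (0.968), and among the members SPRY2 (0.976) and SPRY4 (0.928) came closest and DUSP10 last (0.650). For SPRED1 they included CAND1, LARP4B, C1orf174 and PLAUR (0.994 to 0.995), with SPRED2 at 0.962.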

How the data were processed

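The authors deposited raw read counts per gene for total human reads, for reads named nascent (called labelled here) and for fly spike-in reads. Per the labels' protocols, libraries were made with the forward QuantSeq 3′ kit after iodoacetamide treatment. The submitters' processing notes name the builds hg38 and dm6 and the tools bedtools, Trim Galore (version 0.6.5) and bcl2fastq (version 2.17.1.14). The aligner, counting tool, annotation and the rule for a labelled read are not given in the sources used here.

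Members and gene lists were chosen with earlier results of these data known. Counts were fitted with edgeR 4.0.16 (quasi-likelihood test, R 4.3.3) on every gene whose mean count reached 20 (11797 total, 8817 labelled), scaled by the fly read total. Total RNA was fitted with one level per time and one term per inhibitor (4 residual degrees of freedom), and slopes per hour with a common 0 h level (6 residual degrees of freedom). Adjusted p-values are Benjamini-Hochberg values over all genes tested, with a threshold of 0.05. With 1 library per condition they measure scatter about the model, which may be technical. In the total RNA fit with 1 term per inhibitor, that scatter also takes in any change of an inhibitor's difference with time. Each SE was derived from its F statistic. Ratios of 2 libraries and shares have exact (Clopper-Pearson) 95% intervals, which cover counting error only, since reads without molecular identifiers are not independent molecules. Median log2 ratios used a pseudocount of 0.5 reads, and 0 reads were set to a floor of 3 reads for fold differences. That floor lies under the exact upper 95% limit of 3.69 reads for a count of 0, so these folds are not lower bounds. The fits were run on simulated data with less scatter than was estimated here and, for total RNA, an inhibitor effect constant over time. That run does not show how the fits behave on these data. Genes named besides the members are, per list, up to 5 past the threshold and the 2 with the most reads, and the 5 genes most like DUSP5 and SPRED1; some of these are not reported here. Alternatives were TMM scaling, other count minimums, DESeq2 1.42.0, fits of 2 arms, and leaving out libraries or times. Sequences are from GENCODE v29 transcripts and the RefSeq promoter table (GRCh38.p14).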

Additional observations from a re-analysis of the deposited data

How the results depend on the processing

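In AZ-5576 against DMSO the 4 calls became 7 with slopes per hour (73.3% of all genes were called lower) or without the 2 h libraries (47.9%). They became 6 with DESeq2 (35.3%) or 2 arms (1635 of 11643 genes), 3 with TMM (2.32%) and 0 without the 4 h libraries (0.0507%). Without 1 library they ran from 0 to 7. Against JQ1 the 3 calls became 7 with slopes (6493 of 11797 genes were called lower) or without the 2 h libraries (25.6%). They became 6 without a count filter or with DESeq2 (10.2%) and 0 with 2 arms (0.154%), and ran from 0 to 7 without 1 library. In JQ1 against DMSO, slopes and the 2-arm fit each called 1 (SPRED1), beside 16.2% and 20.9% of all genes called lower. In the labelled DMSO slope the 2 calls became 1 with TMM (2316 of 8817 genes were called lower) or without the 8 h libraries. They became 7 with a mean of at least 5 (78.8% of all genes) or no filter, and ran from 1 to 2 without 1 library. In labelled AZ-5576 against DMSO, TMM gave 1 (331 of 8817 genes were called lower), and leaving out 1 library gave 0 to 1. Scaled by human reads, the median log2 ratio of AZ-5576 to DMSO was -2.09 at 4 h and -4.12 at 8 h. Each of the 7 readable members stayed below 0 in AZ-5576 against DMSO in every fit run. DUSP2, below the count minimum, had more reads in AZ-5576 than in DMSO at 4 h and 8 h. TMM moved the median of all genes from -0.82 to -0.08 in AZ-5576 and from -0.31 to 0.01 in JQ1. The uncalled JQ1 differences changed sign in SPRY2 without the 4 h (-0.043) or 8 h libraries (-0.14), in DUSP5 with TMM (0.21) or without 4 h (0.35), in SPRY4 with slopes (0.0135), TMM (0.28), without 2 h (0.0368) or without 4 h (0.18), and in SPRED2 with TMM (0.12). Without 1 library they ran from -0.19 to 0.86 in DUSP1, -0.30 to 0.50 in SPRY2, -0.51 to 0.49 in DUSP5, -0.18 to 1.01 in DUSP10, -0.47 to 0.22 in SPRY4, -0.66 to 0.32 in SPRED2 and -1.43 to -0.34 in SPRED1. The cause was not tested in any of these. No paired analysis was possible because the replicate number is 1 in every group; libraries of the same time were matched by the time levels of the fit. Depth limits DUSP2, DUSP4 and DUSP6, and labelled reads of all but SPRED1 and SPRED2.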
